A study of Homo sapiens with 6 samples.

Results

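The genes examined here encode the sorting nexins, the proteins named for vacuolar protein sorting (VPS) and the endosomal sorting complexes required for transport (ESCRT). They were chosen by name: protein-coding genes called SNX, VPS or CHMP with a number, plus HGS, STAM, STAM2, TSG101, PDCD6IP, WASHC1, WASHC5 and ANKRD27. The rule found 82 of the 58735 genes, 19951 of them protein-coding, in a table of expression values from RNA sequencing. By family these were 30 SNX genes, 33 VPS genes, 11 CHMP genes and the 8 named singly. The cells were NCI-N87, an established human gastric cancer cell line. In the shNC group (3 libraries) the cells carried the lentiviral control, which the study's methods give as the empty vector pSIH-H1-puro, and in the shScamp1 group (3 libraries) the same vector with a short hairpin RNA against SCAMP1, driven by the H1 promoter. Both groups were infected for 24 h, selected with 2 μg/ml puromycin and collected at about 80% confluence. The shScamp1 group carries 1 hairpin. The sample titles call the libraries of a group biological replicates, but the sources used here do not say whether these came from separate infections or from separate cultures of 1 selected population, so p-values measure the spread between these libraries.

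These proteins decide where a membrane protein goes after it has reached an endosome. ESCRT complexes gather ubiquitin-tagged receptors and bud them into the lumen of the endosome, which sends them to the lysosome; ESCRT-III filaments cut the membrane neck, and the VPS4 ATPases take the filaments apart. Retromer and many sorting nexins, which bind phosphoinositide lipids through a PX domain, send cargo back to the Golgi or the cell surface instead. The HOPS and CORVET complexes tether endosomes and lysosomes before they fuse, and GARP tethers vesicles that return to the Golgi. SCAMP1, the gene targeted by the hairpin, encodes a membrane protein of recycling endosomes and Golgi carriers.

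Expression is given in FPKM, fragments per kilobase of gene length and per amount of sequencing, in the deposited scaling between libraries, so levels can be compared between genes. Fold changes are differences of group means on the log2(FPKM + 0.1) scale, shScamp1 against shNC, and understate the change of low genes. They were tested with limma, adjusted by the Benjamini-Hochberg method over 15556 genes, those whose mean reached 0.5 FPKM, and a gene is called when its adjusted p is under 0.05. SCAMP1 stood at 12.6, 12.1 and 11.52 FPKM in the shNC libraries and at 1.70, 1.37 and 1.99 FPKM in the shScamp1 libraries. The difference was -2.78 on the log2 scale (SE 0.14, adjusted p = 0.000248 by limma), so the labels match the targeted gene. Scaling by total reads in place of the deposited scaling gave lower values. The difference of SCAMP1 was then -2.85, and the median log2 fold change over all genes tested was -0.09 in place of -0.02. Libraries held 15064905 to 15988700 reads on genes in shNC and 14311769 to 14667628 in shScamp1. Summed levels of fibroblast markers were at most 0.773 FPKM in any library and those of immune markers at most 0.656 FPKM, and the fibroblast markers COL1A2, DCN and LUM were listed at 0. The summed level of the 6 gastric epithelial markers was 5421 to 5702 FPKM in shNC and 9056 to 10009 FPKM in shScamp1. KRT8 (mean 1534 and 3002 FPKM), KRT18 (875 and 2000 FPKM) and KRT19 (1688 and 2844 FPKM) made up most of that difference, whereas ERBB2 went from 1235 to 1382 FPKM and EPCAM from 153 to 148 FPKM. The part of this difference in the results was not tested. Summed endothelial markers were 0.139 to 0.235 FPKM in shNC and 0.381 to 0.612 FPKM in shScamp1, most of it from VWF, with PECAM1 at or near 0. In such bulk libraries a change in the share of cells and a change in RNA per cell cannot be told apart.

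The second shScamp1 library stood apart from the other 5. Against the median of all libraries, its log2 values were shifted by -0.30 in the shortest of 5 equal length classes of nuclear protein-coding genes and by 0.21 in the longest, whereas the shifts of the other 5 libraries lay between -0.03 and 0.04. The mitochondrial share of its reads was 9.21%, and 6.09% to 6.78% in the others. The members followed the same pattern: the difference between this library and the mean of the other shScamp1 libraries had a median of -0.24 on the log2 scale over the 25 shortest tested members (1626 to 3839 bases), 0.05 over the middle 25 and 0.21 over the 25 longest (7105 to 20899 bases). Across the 75 tested members the difference correlated with gene length (Spearman's rho = 0.65), a description over genes that share the same libraries. CHMP4B and CHMP5, which are short, lay far below their replicates in this library, and VPS13C and VPS13D, which are long, lay far above. VPS18 was high there although its gene length is not. Calls that change are therefore also given without this library, and for some genes with the trend of each library along gene length removed. The cause of the difference was not tested.

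**Figure D1:**
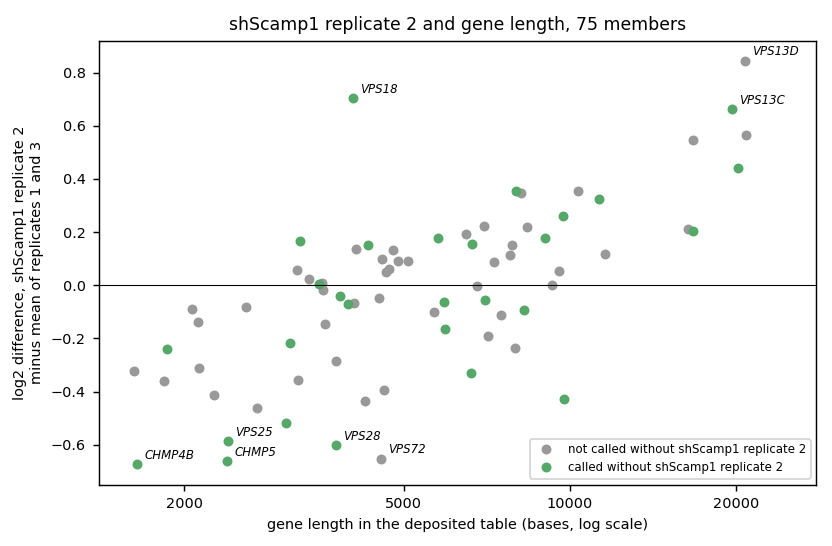
Each point is 1 of the 75 tested members, with its gene length in bases on a log axis and, on the vertical axis, the log2 difference of shScamp1 replicate 2 from the mean of shScamp1 replicates 1 and 3. Short genes lie mostly below 0 and long genes mostly above it (rho = 0.65), and green points are the 28 members called when this library was left out.

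Of the 82 members, 75 passed the filter on low values and could be tested. VPS4B, SNX29, CHMP3, TSG101, SNX33, VPS37C, SNX8, VPS37B and SNX10 were called, 9 in all and each higher in shScamp1. This is 12.0% of the tested members, while 14.0% of all genes tested were called, 8.82% higher and 5.17% lower. The share of members called was thus near that of all genes. No member passed a log2 fold change of 1 together with the call, by limma or by voom on the recovered reads, whereas 3.16% of all genes did by limma, and 25 of the 75 members had an unadjusted p under 0.05, against 30.7% of all genes. The log2 fold changes of the called members ran from 0.33 to 0.71. Without shScamp1 replicate 2, 28 members were called (37.3%), 22 higher and 6 lower, against 27.8% of all genes (14.7% higher and 13.2% lower), and these 28 included the 9. With the trend along gene length removed, 20 members were called (26.7%), 15 higher and 5 lower, against 18.2% of all genes (10.8% higher and 7.46% lower), again with the 9 among them. Of the 28 and the 20, 18 were called in both. When the libraries were scaled by total reads instead of the deposited scaling, 6 members were called, 5 higher and SNX18 lower (adjusted p = 0.0303), while VPS37B (0.109), VPS37C (0.0607), SNX8 (0.0517) and SNX10 (0.07) were not called, against 15.5% of all genes (7.32% higher and 8.15% lower), and the calls over all genes were 1138 higher and 1268 lower in place of 1372 and 805.

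More members lay above 0 than below. Their median log2 fold change was 0.15, against -0.02 over all genes tested, and 51 of 75 (68.0%) were above 0, against 47.6% of all genes. Scaled by total reads, 46 of the 75 members and 6158 of the 15556 genes lay above 0, with medians of 0.07 and -0.09. In 30 members every shScamp1 library lay above every shNC library and in 8 every shScamp1 library lay below, together 50.7% of those tested. Over all genes the groups did not overlap in 41.4%, 20.4% higher and 21.0% lower. Members were split by role into the ESCRT set (ESCRT-0 to ESCRT-III, VPS4 and ALIX, 25 members of which 24 were tested) and the rest (57, of which 51 were tested). In the ESCRT set 5 rose and 0 fell, with a median of 0.24 on the log2 scale. Among the rest 4 rose and 0 fell, with a median of 0.13, beside 8.82% higher and 5.17% lower over all genes. Within the rest, the 30 sorting nexins, 25 of them tested, had 4 that rose and a median of -0.00. Without shScamp1 replicate 2 the ESCRT set had 14 called higher and 1 lower, and the rest 8 higher and 5 lower, beside 14.7% higher and 13.2% lower over all genes. With the length trend removed the counts were 10 and 0 in the ESCRT set and 5 and 5 in the rest, beside 10.8% and 7.46%. The difference between these sets was not tested.

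On GRCh38, with gene models of GENCODE 29, the called members lie at chr18:63389190-63422483 (VPS4B), chr16:11976737-12574289 (SNX29), chr2:86503431-86563479 (CHMP3), chr11:18468336-18527232 (TSG101), chr15:75647906-75662301 (SNX33), chr11:61130256-61161617 (VPS37C), chr7:2251770-2354318 (SNX8), chr12:122865328-122896444 (VPS37B) and chr7:26291895-26374329 (SNX10). SNX29, SNX33 and SNX10 are on the plus strand and the others on the minus strand.

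**Figure D2:**
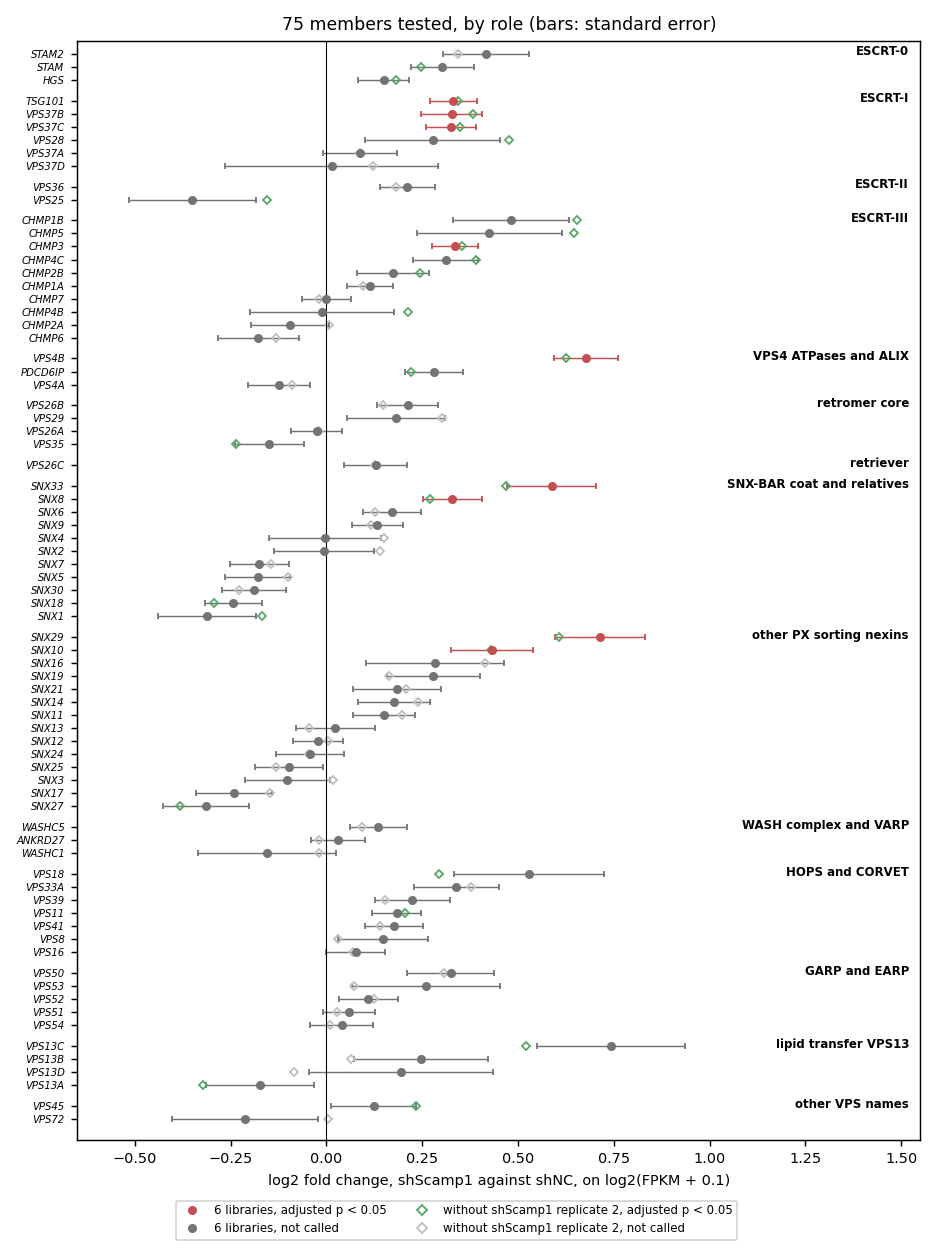
Each row is 1 of the 75 tested members, grouped by role, with its log2 fold change of shScamp1 against shNC on the log2(FPKM + 0.1) scale (filled circles, bars are standard errors, red where the adjusted p is under 0.05) and the same value without shScamp1 replicate 2 (open diamonds, green where called). All 9 red circles lie to the right of 0, and for CHMP4B and CHMP5 the diamond lies well to the right of the circle (0.21 against -0.01 and 0.65 against 0.43).

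Promoters of called members are shown because these genes moved in the same direction. RefSeq promoter sequences on GRCh38.p14, 250 bases before and 50 after the gene's start, were at hand for 60 of the 82 members and for 7 of the 9 called. The 250 bases before the start follow for VPS4B (chr18:63422477-63422726, minus strand), TSG101 (chr11:18526943-18527192, minus strand), VPS37B (chr12:122896125-122896374, minus strand) and SNX8 (chr7:2314442-2314691, minus strand), written 5′ to 3′ on the gene's strand, with capitals for the E-box core CACGTG. RefSeq starts differ from the ends of the GENCODE spans: that of SNX8 lies 39877 bases inside its span, those of VPS37B and TSG101 320 and 290 bases inside, and that of VPS4B 7 bases inside.
VPS4B: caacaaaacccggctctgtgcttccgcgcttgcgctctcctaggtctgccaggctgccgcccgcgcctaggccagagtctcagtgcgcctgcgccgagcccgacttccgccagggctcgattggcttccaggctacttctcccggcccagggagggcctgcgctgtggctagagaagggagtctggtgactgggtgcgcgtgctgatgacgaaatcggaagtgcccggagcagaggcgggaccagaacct
TSG101: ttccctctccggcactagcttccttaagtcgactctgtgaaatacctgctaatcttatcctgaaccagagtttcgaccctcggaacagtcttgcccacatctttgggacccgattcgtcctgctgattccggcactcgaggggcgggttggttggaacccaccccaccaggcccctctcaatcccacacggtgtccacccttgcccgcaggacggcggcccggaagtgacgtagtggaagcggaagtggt
VPS37B: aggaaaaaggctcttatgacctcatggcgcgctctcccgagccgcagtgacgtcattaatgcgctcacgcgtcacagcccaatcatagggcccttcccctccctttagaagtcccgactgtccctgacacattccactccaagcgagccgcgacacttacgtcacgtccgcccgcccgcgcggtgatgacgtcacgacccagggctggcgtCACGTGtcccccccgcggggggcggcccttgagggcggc
SNX8: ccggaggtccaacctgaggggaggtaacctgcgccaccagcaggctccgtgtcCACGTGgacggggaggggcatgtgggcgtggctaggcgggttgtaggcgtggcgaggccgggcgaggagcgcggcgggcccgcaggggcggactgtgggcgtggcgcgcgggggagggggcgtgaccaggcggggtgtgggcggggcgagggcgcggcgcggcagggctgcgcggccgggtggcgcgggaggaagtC
VPS37B holds a CACGTG that begins 39 bases before its start, and SNX8 one that begins 197 bases before it, while VPS4B and TSG101 hold none. SNX10, SNX29 and SNX33, whose promoters are not printed, hold none either, so 2 of the 7 called members have it. A second CACGTG of SNX8 crosses the start, so that only its first base, the last capital, is printed. On either strand, CACGTG was found in 8 of the 60 member promoters (13.3%) and in 7.43% of the 27305 promoters in the table. The CLEAR element, a longer sequence with the same core that the lysosomal regulator TFEB binds, was in 1 member promoter (CHMP4A, 1.67%) and in 0.381% of all. The core of the interferon-stimulated response element was in 0 of 60 against 3.65% of all, and the STAT letters TTCNNNGAA were in 4 (6.67%) against 7.88%. The median GC content was 66.7% for the members and 58.3% for all promoters. A match to letters is not a site of binding.

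ESCRT-0 is the first complex to meet ubiquitin-tagged cargo and consists of HGS (also called HRS) and STAM or STAM2. None of its 3 genes was called by limma with all libraries (2 at an unadjusted p under 0.05, and 1 called by voom). In all 3 each shScamp1 library lay above each shNC library, as in 20.4% of all genes tested. Over all genes, 30.7% had an unadjusted p under 0.05 and 17.7% were called by voom. HGS, the scaffold that binds endosomal lipid, stood at 12.6, 13.2 and 13.4 FPKM in shNC and at 15.2, 13.9 and 14.5 FPKM in shScamp1 (log2 fold change 0.15, 95% interval -0.01 to 0.31, adjusted p = 0.188). STAM had a log2 fold change of 0.30 (adjusted p = 0.0605) and STAM2 one of 0.42 (adjusted p = 0.0586). Without shScamp1 replicate 2, HGS (0.18, adjusted p = 0.0435) and STAM (0.25, adjusted p = 0.0384) were called and STAM2 was not (0.34, adjusted p = 0.0599). With the length trend removed HGS (adjusted p = 0.454) and STAM (adjusted p = 0.0735) were not called, whereas STAM2 was (0.39, adjusted p = 0.0428).

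ESCRT-I recognises the cargo next, and 3 of its 6 members rose and 0 fell, beside 8.82% and 5.17% over all genes. This count over so few genes was not tested. TSG101, the subunit that binds ubiquitin and is also recruited by budding viruses, stood at 5.93, 6.11 and 6.10 FPKM in shNC and at 7.81, 7.497 and 7.60 FPKM in shScamp1. The groups did not overlap, the second shScamp1 library was close to the other two, and the log2 fold change was 0.33 (SE 0.06, adjusted p = 0.0183 by limma). VPS37 proteins are alternative subunits of the same complex, coded by 4 genes. VPS37C rose from 9.56, 8.96 and 9.53 FPKM to 11.8, 11.3 and 12.0 FPKM (0.33, SE 0.06, adjusted p = 0.0226). VPS37B, the most abundant of the 4, rose from 14.1, 15.2 and 15.7 FPKM to 19.2, 17.4 and 19.9 FPKM (0.33, SE 0.08, adjusted p = 0.0443), and 27.9% of its exon bases are shared on the same strand with AC027290.2, so part of its reads may belong to that gene. VPS37A (2.31 to 2.61 FPKM in shNC, 2.45 to 2.83 FPKM in shScamp1) and VPS37D (0.554 to 0.970 FPKM in shNC, 0.584 to 0.80 FPKM in shScamp1) overlapped between the groups. Summed over the 4 genes, VPS37 was 27.5 ± 0.734 FPKM in shNC and 33.9 ± 1.79 FPKM in shScamp1 (SD, n = 3 each). The core subunit VPS28 stood at 21.2, 20.9 and 23.8 FPKM in shNC and at 31.8, 20.1 and 29.4 FPKM in shScamp1, with a log2 fold change of 0.28 (adjusted p = 0.334). Its second shScamp1 library lay under all shNC libraries, and without it the log2 fold change was 0.48 (adjusted p = 0.00697), while with the length trend removed VPS28 was not called (0.31, adjusted p = 0.183).

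ESCRT-II links the cargo complexes to ESCRT-III. VPS36 was at 6.41 to 6.94 FPKM in shNC and 7.26 to 7.98 FPKM in shScamp1 (log2 fold change 0.21, adjusted p = 0.107). VPS25 stood at 23.9, 24.1 and 24.9 FPKM in shNC and at 22.1, 14.5 and 21.6 FPKM in shScamp1 (-0.35, adjusted p = 0.209). The second shScamp1 library carried most of that difference, and without it VPS25 was at -0.15 on the log2 scale and was called (adjusted p = 0.0324), the only ESCRT gene called lower in that fit, but not with the length trend removed (-0.25, adjusted p = 0.138).

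ESCRT-III subunits, the CHMP proteins, polymerise at the membrane neck. Of 11 genes 10 were tested, 1 rose and 0 fell, beside 8.82% and 5.17% over all genes. The level spanned from CHMP4A, under the filter, to CHMP4B, the most abundant member of the whole set. CHMP3, which caps the filament together with CHMP2A, rose from 10.9, 10.7 and 10.5 FPKM to 14.0, 13.2 and 13.5 FPKM (log2 fold change 0.34, SE 0.06, adjusted p = 0.016), with 10.8% of its exon bases shared with the read-through gene RNF103-CHMP3. All 3 shScamp1 libraries lay above all shNC libraries. CHMP4B, the main filament subunit, stood at 109, 114 and 115 FPKM in shNC and at 131, 81.7 and 130 FPKM in shScamp1, so that shScamp1 held both its highest values and its lowest. Its log2 fold change was -0.01 with all libraries (95% interval -0.47 to 0.44, adjusted p = 0.973) and 0.21 without shScamp1 replicate 2 (adjusted p = 0.00921), and 0.10 with the trend along gene length removed (adjusted p = 0.564).

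Calls of other CHMP genes also turned on this library. CHMP1B, which recruits VPS4 and the microtubule-severing enzyme spastin, stood at 21.7, 22.8 and 20.8 FPKM in shNC and at 34.9, 23.9 and 33.6 FPKM in shScamp1 (0.48, adjusted p = 0.0847), and 18.1% of its exon bases overlap the antisense gene CHMP1B-AS1. CHMP5 stood at 20.6, 20.8 and 19.8 FPKM in shNC and at 34.0, 20.2 and 30.1 FPKM in shScamp1 (0.43, adjusted p = 0.187). CHMP4C, which takes part in the abscission checkpoint at the end of cell division, stood at 30.4, 29.2 and 28.7 FPKM in shNC and at 38.7, 32.7 and 38.5 FPKM in shScamp1 (0.31, adjusted p = 0.06). In each of these genes replicates 1 and 3 of shScamp1 were alike and above shNC, and replicate 2 was near or within the range of shNC. Without it CHMP1B (0.65, adjusted p = 0.000793), CHMP5 (0.65, adjusted p = 0.00178) and CHMP4C (0.39, adjusted p = 0.00175) were called, and so they were with the length trend removed (adjusted p = 0.016, 0.0332 and 0.0041). CHMP2B was called without that library as well (0.25, adjusted p = 0.0489) but not with the length trend removed (0.24, adjusted p = 0.0692). Without that library this gives 6 of the 10 tested ESCRT-III genes higher and 0 lower, beside 14.7% and 13.2% over all genes. With the length trend removed 4 were higher and 0 lower, beside 10.8% and 7.46%. CHMP1A (0.11), CHMP2A (-0.10), CHMP6 (-0.18) and CHMP7 (-0.00) were called in neither fit, with adjusted p from 0.246 to 0.999 with all libraries.

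VPS4 ATPases pull ESCRT-III filaments apart and are coded by 2 human genes. VPS4B stood at 8.84, 8.41 and 8.27 FPKM in shNC and at 12.4, 14.7 and 14.0 FPKM in shScamp1, 1.6 times as high on the log2(FPKM + 0.1) scale. Its log2 fold change was 0.68 (SE 0.08, adjusted p = 0.00482), the lowest adjusted p of all members, and it was called whichever library was left out (adjusted p at most 0.0355). VPS4A stood at 10.5, 10.0 and 9.53 FPKM in shNC and at 10.0, 8.76 and 8.84 FPKM in shScamp1 (-0.12, 95% interval -0.32 to 0.07, adjusted p = 0.352), and 36.4% of its exon bases are shared with other genes, among them COG8. The ratio of VPS4B to VPS4A was 0.839, 0.841 and 0.867 in shNC and 1.23, 1.67 and 1.59 in shScamp1. In FPKM, VPS4B thus passed from the less abundant to the more abundant of the pair in all 3 shScamp1 libraries. How reads in the shared bases of VPS4A were counted is not given, so which gene is the more abundant is uncertain. For the ratio, the exact two-sided permutation test gave p = 0.1, the smallest that 3 against 3 libraries allow, and 0.133 adjusted over 8 ratios. The sum of both genes was 18.5 ± 0.795 FPKM in shNC and 22.9 ± 0.525 FPKM in shScamp1 (SD, n = 3 each). PDCD6IP, the gene for ALIX, which links cargo and TSG101 to ESCRT-III, was at 9.54 to 10.1 FPKM in shNC and 11.2 to 13.0 FPKM in shScamp1 (0.28, adjusted p = 0.06), and without shScamp1 replicate 2 it was called (0.22, adjusted p = 0.0212).

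**Figure D3:**
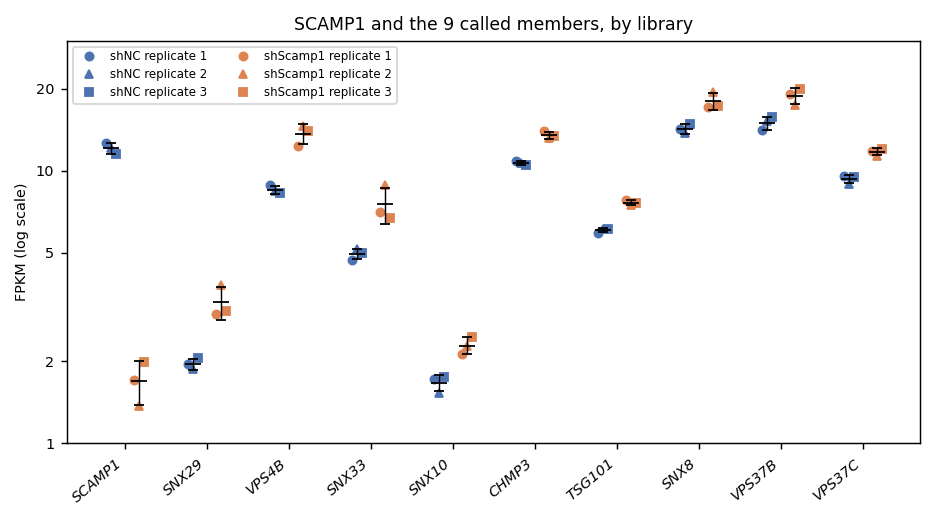
FPKM on a log axis for SCAMP1 and the 9 called members in the 3 shNC libraries (blue) and the 3 shScamp1 libraries (orange), with the marker shape giving the replicate and black bars the mean and SD. SCAMP1 is lower in every shScamp1 library, and for each called member all 3 orange points lie above all 3 blue points.

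The retromer core selects cargo for return, and none of its 4 genes was called by limma or voom, with 1 at an unadjusted p under 0.05. VPS35, its scaffold, stood at 16.1, 16.2 and 16.1 FPKM in shNC and at 13.4, 16.4 and 14.1 FPKM in shScamp1 (log2 fold change -0.15, 95% interval -0.37 to 0.07, adjusted p = 0.309). Here the second shScamp1 library was the one at the shNC level, and without it VPS35 was called lower (-0.24, adjusted p = 0.0107), as it was with the length trend removed (-0.22, adjusted p = 0.0314). VPS26A, the most abundant of the core genes, was at 29.03 to 32.2 FPKM in shNC and 29.9 to 31.2 FPKM in shScamp1 (-0.03, 95% interval -0.19 to 0.14). VPS26B, its paralogue, was at 7.94 to 8.37 FPKM and 8.81 to 10.3 FPKM (0.21, adjusted p = 0.134), and VPS29, which retriever also contains, was at 15.1 to 16.02 FPKM and 15.0 to 21.2 FPKM (0.18, adjusted p = 0.378). None of these 3 was called in the fit without replicate 2 either. The sum of VPS26A and VPS26B was 39.1 ± 1.47 FPKM in shNC and 39.8 ± 0.969 FPKM in shScamp1. VPS26C, of the related retriever complex, was at 3.06 to 3.51 FPKM in shNC and 3.52 to 3.57 FPKM in shScamp1 (0.13, adjusted p = 0.34).

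SNX-BAR proteins carry a membrane-bending BAR domain beside the PX domain, and SNX1, SNX2, SNX5 and SNX6 form the tubules on which retromer cargo leaves the endosome. None of these 4 was called. SNX1 stood at 12.2, 11.7 and 12.0 FPKM in shNC and at 10.6, 7.86 and 10.7 FPKM in shScamp1 (log2 fold change -0.31, adjusted p = 0.159), and without shScamp1 replicate 2 it was called lower (-0.17, adjusted p = 0.0334) but not with the length trend removed (-0.39, adjusted p = 0.171). SNX5 was at -0.18 (adjusted p = 0.21), SNX6 at 0.17 (adjusted p = 0.186) and SNX2 at -0.01 (95% interval -0.32 to 0.31, adjusted p = 0.979), and none of them was called in that fit. The sum of SNX1 and SNX2 was 24.4 ± 0.529 FPKM in shNC and 22.2 ± 3.67 FPKM in shScamp1.

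Of the relatives of these coat proteins, 7 genes were tested, of which 2 rose and 0 fell, beside 8.82% and 5.17% over all genes. The group did not rise as a whole: 3 of the 7 lay above 0, with a median log2 fold change of -0.004. With the length trend removed 2 were called higher and 2 lower, beside 10.8% and 7.46% over all genes. SNX8, which acts in transport from endosomes to the Golgi, stood at 14.2, 13.7 and 14.9 FPKM in shNC and at 17.1, 19.5 and 17.3 FPKM in shScamp1 (0.33, SE 0.08, adjusted p = 0.0391). SNX33, an SH3-domain protein of the SNX9 family that works with dynamin and the actin machinery at the plasma membrane, rose from 4.73, 5.15 and 4.98 FPKM to 7.07, 8.84 and 6.71 FPKM (0.59, SE 0.12, adjusted p = 0.0226). For both, the second shScamp1 library was the highest. Without it the fold changes were smaller and both were called (SNX8 0.27, adjusted p = 0.012, and SNX33 0.47, adjusted p = 0.00483). SNX18, another member of the SNX9 family and the most abundant gene of this group, stood at 27.3, 27.1 and 26.3 FPKM in shNC and at 21.0, 24.4 and 22.8 FPKM in shScamp1 (-0.24, adjusted p = 0.0797), and was called lower without shScamp1 replicate 2 (-0.29, adjusted p = 0.00906) and with the length trend removed (-0.26, adjusted p = 0.0262). The ratio of SNX33 to SNX18 was 0.173 to 0.190 in shNC and 0.294 to 0.363 in shScamp1 (exact permutation test, p = 0.1, adjusted 0.133). Together with SNX9 (0.13, adjusted p = 0.229) the 3 genes summed to 44.0 ± 0.167 FPKM in shNC and 43.6 ± 2.92 FPKM in shScamp1.

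**Figure D4:**
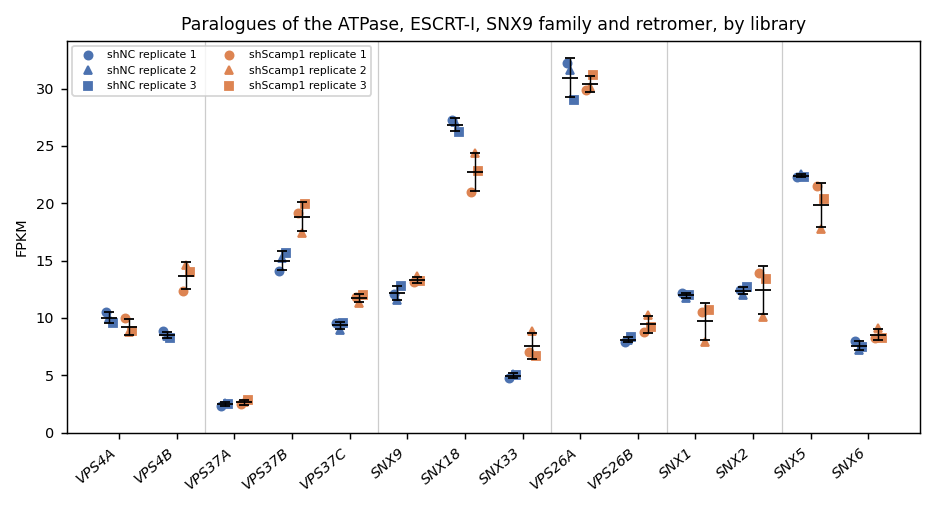
FPKM on a linear axis for pairs and families of related genes in the 3 shNC libraries (blue) and the 3 shScamp1 libraries (orange), with the marker shape giving the replicate and black bars the mean and SD. VPS4B moves above VPS4A, SNX33 rises while SNX18 lies lower, and VPS26A keeps nearly the same range in both groups.

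The other sorting nexins had 18 genes, 14 of them tested, of which 2 rose and 0 fell, beside 8.82% and 5.17% over all genes. SNX29, a PX protein with a RUN domain, had the largest fold change of the called members: 1.95, 1.87 and 2.05 FPKM in shNC and 2.99, 3.81 and 3.07 FPKM in shScamp1 (log2 fold change 0.71, SE 0.12, adjusted p = 0.0128). SNX29 has near-identical copies elsewhere in the genome, so its value is uncertain to the extent that reads were split among them. SNX10, a PX protein needed for the bone-resorbing function of osteoclasts, rose from 1.72, 1.54 and 1.75 FPKM to 2.12, 2.28 and 2.45 FPKM (0.43, SE 0.11, adjusted p = 0.0464), on 90 to 126 reads per library. Its call was also lost with a pseudocount of 1 (adjusted p = 0.051), no filter (0.105) and a filter of 1 FPKM (0.0502). SNX3, which brings retromer to its Wnt-carrier cargo, was the most abundant, at 62.6 to 66.2 FPKM in shNC and at 65.5, 50.7 and 64.6 FPKM in shScamp1 (-0.10, adjusted p = 0.576). SNX27, which links retromer to receptors with PDZ-binding tails, was at 2.50 to 2.92 FPKM in shNC and 1.94 to 2.36 FPKM in shScamp1 (-0.31, adjusted p = 0.116), and was called lower without shScamp1 replicate 2 (-0.38, adjusted p = 0.0431) and with the length trend removed (-0.45, adjusted p = 0.023). The remaining 10 tested genes of this group, among them SNX17 (-0.24, adjusted p = 0.159) and SNX12 (-0.02, adjusted p = 0.844), were called in neither fit.

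WASH drives actin patches on endosomes that keep retromer cargo apart, and VARP, the product of ANKRD27, binds VPS29. WASHC5 was at 19.8 to 21.2 FPKM in shNC and 21.0 to 24.0 FPKM in shScamp1 (log2 fold change 0.14, adjusted p = 0.265), ANKRD27 was at 0.03 (adjusted p = 0.807) and WASHC1, which has near-identical subtelomeric copies, at -0.16 (adjusted p = 0.598). None was called with or without shScamp1 replicate 2, by limma or voom, and 0 had an unadjusted p under 0.05. In HOPS and CORVET, none of the 7 tested genes was called by limma or voom (3 at an unadjusted p under 0.05). The log2 fold change of all 7 lay above 0, beside 47.6% of all genes, with a median of 0.18. VPS18, a shared core subunit of both complexes, stood at 11.4, 11.8 and 12.4 FPKM in shNC and at 14.5, 23.8 and 14.6 FPKM in shScamp1 (0.53, adjusted p = 0.127), so that its second shScamp1 library lay far above the others. Without that library its fold change was smaller and it was called (0.29, adjusted p = 0.0092), as was VPS11 (0.20, adjusted p = 0.0336). With the length trend removed neither was called (VPS18 0.55, adjusted p = 0.135, and VPS11 0.17, adjusted p = 0.107). The 5 tested GARP and EARP genes also lay above 0, again beside 47.6% of all genes, with 0 called by limma or voom (1 at an unadjusted p under 0.05). VPS51 had the highest level of them, at 19.3 to 21.0 FPKM in shNC and 19.9 to 21.7 FPKM in shScamp1 (0.06, adjusted p = 0.595). Scaled by total reads, VPS51 lay at -0.02.

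VPS13 proteins are long, rod-shaped carriers of lipid between membranes, and their genes are among the longest here. VPS13C had the largest log2 fold change of all members, 0.74, at 3.998, 4.15 and 3.93 FPKM in shNC and 5.39, 9.27 and 6.29 FPKM in shScamp1, and it was not called by limma (adjusted p = 0.0528), though it was by voom on the recovered reads (adjusted p = 0.0215). Its groups did not overlap, and without the high second library it was called at 0.52 (adjusted p = 0.00841). VPS13A, the gene mutated in chorea-acanthocytosis, stood at 6.12, 6.18 and 5.69 FPKM in shNC and at 4.49, 6.52 and 5.08 FPKM in shScamp1 (-0.17, adjusted p = 0.443), and was called lower without that library (-0.32, adjusted p = 0.0311) and with the length trend removed (-0.34, adjusted p = 0.0131). VPS13B (0.25, adjusted p = 0.384) and VPS13D (0.20, adjusted p = 0.618) were called in neither. VPS45, a regulator of SNARE fusion on endosomes, was at 0.12 (adjusted p = 0.496), at 0.23 without that library (adjusted p = 0.0434) and at 0.10 with the length trend removed (adjusted p = 0.599). VPS72, which despite its name is a subunit of chromatin-remodelling complexes, stood at 8.80, 9.20 and 10.1 FPKM in shNC and at 9.94, 5.93 and 8.84 FPKM in shScamp1 (-0.21, adjusted p = 0.493), with 40.5% of its exon bases shared with TMOD4.

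The 7 members under the filter were VPS33B, SNX22, CHMP4A, SNX32, SNX15, SNX31 and SNX20, with mean levels of 0.0170 to 0.498 FPKM. VPS33B (0.484 to 0.538 FPKM in shNC, 0.237 to 0.716 FPKM in shScamp1) shares 52.1% of its exon bases on the same strand with AC068831.7, CHMP4A shares 68.8% with AL096870.2 and SNX15 shares 39.4% with ARL2-SNX15. How reads in shared bases were counted is not given in the sources used here, so a low value of these genes does not show low expression. For SNX20 and SNX31 all libraries were at or under 0.0652 FPKM. In all 7 the groups overlapped.

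The calls differ in which of the fits with 1 library left out kept them. Over all genes, 14.0% were called with all libraries, and 5.34%, 5.19% and 5.52% without shNC replicate 1, 2 and 3. Without shScamp1 replicate 1, 2 and 3 the share was 11.7%, 27.8% and 6.62%. VPS4B was called in all 6 fits that left out 1 library each. SNX29 and SNX33 lost their call when any 1 of the shNC libraries was left out, with adjusted p of 0.0532 to 0.0672 for SNX29 and 0.0813 to 0.0982 for SNX33. CHMP3 lost it without any 1 shNC library and without shScamp1 replicate 3 (adjusted p 0.0694 to 0.0871). TSG101 (0.0512 to 0.0976), VPS37C (0.0575 to 0.115), SNX8 (0.0554 to 0.156), VPS37B (0.0918 to 0.166) and SNX10 (0.0632 to 0.168) kept their call only when shScamp1 replicate 2 was the library left out. The direction of all 9 was the same in every one of these fits.

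Partner genes of the same complexes were described from a list of 58 genes, 56 of them tested: 7 rose, 1 fell and 48 were not called, beside 8.82% higher and 5.17% lower over all genes. Without shScamp1 replicate 2, 18 were higher and 2 lower, beside 14.7% and 13.2% over all genes. PLEKHM1, an adaptor that brings HOPS to lysosomes, rose from 5.78, 5.20 and 5.52 FPKM to 8.70, 10.7 and 9.34 FPKM (log2 fold change 0.78, adjusted p = 0.00457). WASHC2A, the large tail subunit of WASH that binds VPS35, was at 11.8 ± 0.318 FPKM in shNC and 16.5 ± 0.620 FPKM in shScamp1 (SD of 3 libraries, 0.48 on the log2 scale, adjusted p = 0.00595), and its near-identical copy WASHC2C from 7.38 ± 0.0922 to 8.95 ± 0.438 FPKM (0.27, adjusted p = 0.0428), so that how the reads were split between the copies is uncertain. These PLEKHM1 and WASHC2A calls held whichever library was left out, at adjusted p of at most 0.0327 and 0.0446. EHD1, which cuts recycling tubules, had a log2 fold change of 0.55 (adjusted p = 0.0145; up to 0.0731 with 1 library left out).

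Of the 15 ESCRT partners tested, 2 rose and 0 fell, beside 8.82% and 5.17% over all genes, and 8 of the 15 lay above 0. VTA1, the cofactor of VPS4, had a log2 fold change of 0.29 (adjusted p = 0.0483), and STAMBP, a deubiquitinase that binds STAM, one of 0.30 (adjusted p = 0.0417). In MVB12B (-0.45, adjusted p = 0.0912 by limma and 0.0458 by voom), MVB12A (-0.24, adjusted p = 0.198) and SNF8 (-0.20, adjusted p = 0.25) every shScamp1 library lay below every shNC library. In VTA1, STAMBP, CC2D1A, CC2D1B, PTPN23 and UBAP1 every shScamp1 library lay above every shNC library. Over all genes the groups were separated in this way in 20.4% (higher) and 21.0% (lower). Among the cargo of retromer, the sorting receptor SORL1 was at 13.3, 13.1 and 13.1 FPKM in shNC and at 17.6, 27.9 and 19.7 FPKM in shScamp1 (0.69, adjusted p = 0.0425; 0.50 and adjusted p = 0.00305 without shScamp1 replicate 2). WLS, which carries Wnt proteins and is retrieved by SNX3 and retromer, fell by 0.33 on the log2 scale, from 14.6 ± 0.755 to 11.6 ± 0.658 FPKM (adjusted p = 0.0368). With 1 library left out the adjusted p of VTA1, STAMBP, WASHC2C, SORL1 and WLS reached 0.140 to 0.166. Scaled by total reads, VTA1 (adjusted p = 0.0939 by limma), STAMBP (0.106) and WASHC2C (0.0737) were not called. None of the 12 tested commander partners and none of the 5 class III phosphoinositide 3-kinase genes, which make the lipid that PX domains bind, was called by limma, with 3 and 2 genes at an unadjusted p under 0.05 and 0 and 1 called by voom. Without shScamp1 replicate 2 the former had 2 higher and 1 lower and the latter 1 higher. EHD3 and VPS35L were under the filter.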

How the data were processed

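RNA from NCI-N87 cells of the shNC and shScamp1 groups was sequenced in 3 libraries each. The authors deposited FPKM per gene and library, with the gene length in bases (a deposited column of another kind), coordinates and biotype, and the submitters' processing notes name HISAT2 2.0.5, featureCounts 1.5.0-p3, DESeq2 1.20.0 and hg38. The strand setting and the counting of reads in shared exons are not given in the sources used here. The coordinates of all 58735 genes equal those of GENCODE 29. FPKM times gene length was a whole multiple of 1 step per library for 100% of values, which gave the reads per gene. The tolerance was 0.02 plus a part that grew with the read count, so the check was loose for genes with many reads. Unlike the deposited FPKM, these reads carry no scaling between libraries. For voom they were scaled by each library's median ratio to the geometric mean over libraries, so the voom fit is not free of such scaling.

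Groups were compared by limma 3.58.1 under R 4.3.3 (lmFit, eBayes with a mean-variance trend) on log2(FPKM + 0.1), for genes whose mean over the libraries reached 0.5 FPKM, with the Benjamini-Hochberg adjustment over all of them and a threshold of 0.05. The code was run on simulated data. These had changes larger than those of the called members and no library shifted along gene length, so they do not show how small changes are recovered. The comparison had no block. Sums, ratios, exact permutation tests and promoter motifs were computed in Python 3.11.15 with pandas 2.3.3, numpy 2.4.6 and scipy 1.17.1. The members, role groups, partner and marker lists and motifs were chosen with earlier results of these data known. The genes to name were SCAMP1, the called members and partners, the most abundant member of each role group, the retromer core and its SNX-BAR genes, the VPS4 genes, TSG101, HGS, PDCD6IP and the members under the filter. Other genes were named after their values were seen. The value of 1 cell type marker is not reported here. Alternatives were pseudocounts of 1 and 0.01, no filter and a filter of 1 FPKM, scaling by total reads or the upper quartile, no trend, protein-coding genes only, voom on the recovered reads, the replicate number as a block, each library left out, unadjusted p, and, chosen after seeing the data, removal of each library's trend with gene length.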

Additional observations from a re-analysis of the deposited data

How the results depend on the processing

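The limits of these results are the 3 libraries per group, shScamp1 replicate 2 and reads in shared exons, and low genes such as SNX10 rest on few reads. The number of members called, 9, became 14 (18.7%) with protein-coding genes only, beside 22.8% of all genes, and 14 with voom on the recovered reads, beside 17.7%, 25 at an unadjusted p under 0.05 and 20 with the length trend removed, an alternative chosen after seeing the data. It was 6 (7.32%) with no filter, beside 4.81% of all genes, and 7 (9.33%) with no mean-variance trend, beside 12.0%. With 1 library left out it ranged from 1 to 28: it was 1 without any of the shNC libraries, where VPS4B was the called gene, 6 without shScamp1 replicate 1, 28 without shScamp1 replicate 2 and 3 without shScamp1 replicate 3. Over all genes the count of 2177 became 4782 at an unadjusted p under 0.05 and ranged from 808 to 4330 with 1 library left out, and the 492 genes that also passed a log2 fold change of 1 became 248 with a pseudocount of 1. The number of members past a log2 fold change of 1 stayed at 0 in every alternative run. With the replicate block, 2 members (VPS4B and SNX33, 2.67%) and 958 genes (6.16%) were called. The deviations of same-numbered libraries correlated at -0.04, 0.03 and 0.07. Whether same-numbered libraries belong together is not given in the sources used here. The cause of the lower counts was not tested.

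Of the 75 tested members, 11 changed sign with the length trend removed, 10 without shScamp1 replicate 2, 5 when scaled by total reads, and at most 7 when another library was left out; none of them was called with all 6 libraries and the main settings. Of the genes chosen by the naming rule, 6 changed sign. Without shScamp1 replicate 2, CHMP4B lay at 0.21 (called), SNX2 at 0.14, SNX3 at 0.018 and VPS72 at 0.0053, and with the length trend removed CHMP4B lay at 0.10, SNX2 at 0.0073, SNX3 at 0.011 and VPS26A at 0.019. Without shNC replicate 3, CHMP4B lay at 0.0020 and SNX2 at 0.0097, and without shNC replicate 1 VPS26A lay at 0.0043. Scaled by total reads, VPS51 lay at -0.016. With 1 library left out, CHMP4B ranged from -0.13 to 0.21, SNX2 from -0.094 to 0.14, SNX3 from -0.17 to 0.018, VPS26A from -0.071 to 0.0043 and VPS72 from -0.36 to 0.0053. SCAMP1 ranged from -2.90 to -2.65 with 1 library left out and was called in every alternative. Among the values of single named genes under the alternatives, 531 kept direction and side of the threshold, 16 passed the threshold newly, 104 lost it and 12 reversed; causes were not tested.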
